A study of Mus musculus and Rattus norvegicus with 12 samples.

Results

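Small leucine-rich proteoglycans (SLRPs) are secreted matrix proteins, and RNA of 10 of them (Bgn, Dcn, Aspn, Fmod, Lum, Prelp, Omd, Ogn, Chad and Podn) was measured by RNA sequencing in mouse hearts and in cultured rat heart cells in which Jmjd4 was targeted. The genes were taken by symbol with case ignored. The mouse table held 10 of them among 54087 symbols and the rat table held 9 among 28909, and Podn was not analysed here in the rat. All 10 mouse rows and all 9 rat rows passed the filter on low counts, which kept 18094 and 15497 genes. Hearts came from mice with the genotype MCM+ Jmjd4f/f (myh6 cre), called cKO (n = 3), and from Jmjd4f/f control mice, called flox (n = 3). Both groups received tamoxifen and the heart apex was taken at day 14. The Cre is driven by the Myh6 promoter, which is active in cardiomyocytes, and Jmjd4 was not measured by cell type. The label of the flox mice names no Cre, so effects of Cre and of the deletion cannot be told apart. Neonatal rat ventricular cardiomyocytes (NRVCs), from 1-day-old Sprague-Dawley pups and freed of fast-attaching cells by preplating, were treated for 48 h with si-Jmjd4 (called siJmjd4, n = 3) or si-NC (called siNC, n = 3). The labels do not say whether replicates came from separate animals or cultures, so p-values measure the spread between these libraries.

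SLRPs share a core of leucine-rich repeats that binds collagen, and many carry chondroitin, dermatan or keratan sulfate chains. They set the spacing and width of collagen fibrils, and several also bind TGF-beta or cell surface receptors. In the heart they are made mainly by fibroblasts and other stromal cells, and they are known as part of the matrix that is laid down in fibrosis. Biglycan (Bgn), decorin (Dcn) and asporin (Aspn) form a class of close relatives. Fibromodulin (Fmod), lumican (Lum), Prelp and osteomodulin (Omd) form another, and osteoglycin (Ogn), chondroadherin (Chad) and podocan (Podn) are more distant.

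The promoter windows of 5 of these genes are printed here because Bgn, Aspn and Omd were the members that rose in cKO hearts, Fmod had the highest fold change and lay just outside the threshold, and Ogn is the direct neighbour of Omd and did not pass. Each window is the 250 bases before the start annotated by RefSeq on GRCm38.p6, written 5′ to 3′ on the strand of the gene. All 5 genes are on the plus strand, and the windows lie at chrX:73483351-73483600 (Bgn), chr13:49544193-49544442 (Aspn), chr13:49582212-49582461 (Omd), chr1:134037004-134037253 (Fmod) and chr13:49607765-49608014 (Ogn). Capitals mark matches on either strand to a TATA box (TATAAA), a SMAD box (CAGAC), a TEAD site (GGAATG) or a GC box (GGGCGG).
Bgn: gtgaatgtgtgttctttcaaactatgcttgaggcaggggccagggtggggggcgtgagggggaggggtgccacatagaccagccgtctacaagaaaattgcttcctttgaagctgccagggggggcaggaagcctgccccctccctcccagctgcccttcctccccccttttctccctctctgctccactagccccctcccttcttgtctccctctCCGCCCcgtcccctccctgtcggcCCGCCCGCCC
Aspn: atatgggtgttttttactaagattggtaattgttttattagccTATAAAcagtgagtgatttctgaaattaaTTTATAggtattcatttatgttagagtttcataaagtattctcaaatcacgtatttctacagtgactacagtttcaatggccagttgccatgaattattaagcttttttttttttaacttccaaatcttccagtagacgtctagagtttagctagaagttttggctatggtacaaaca
Omd: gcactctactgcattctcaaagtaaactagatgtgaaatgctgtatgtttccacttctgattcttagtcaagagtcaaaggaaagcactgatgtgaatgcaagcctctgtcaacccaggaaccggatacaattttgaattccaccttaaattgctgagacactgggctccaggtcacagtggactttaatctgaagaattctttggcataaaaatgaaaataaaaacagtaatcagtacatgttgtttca
Fmod: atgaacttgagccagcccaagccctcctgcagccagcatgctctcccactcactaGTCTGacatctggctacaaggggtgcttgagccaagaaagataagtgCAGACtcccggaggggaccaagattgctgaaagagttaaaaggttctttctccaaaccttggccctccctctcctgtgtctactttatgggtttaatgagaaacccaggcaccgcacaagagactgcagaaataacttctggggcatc
Ogn: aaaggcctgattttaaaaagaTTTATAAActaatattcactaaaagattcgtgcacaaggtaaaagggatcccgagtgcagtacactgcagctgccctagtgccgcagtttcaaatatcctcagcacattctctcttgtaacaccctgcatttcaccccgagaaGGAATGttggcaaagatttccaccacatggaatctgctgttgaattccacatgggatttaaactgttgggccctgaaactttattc

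The Bgn window held 3 GC box matches, at 34, 10 and 6 bases before the start, of which the last 2 share letters. The Aspn window held 2 TATA box matches, at 207 and 178 bases before the start. The Fmod window held 2 SMAD box matches, at 195 and 148 bases. The Ogn window held a TATA box match on both strands over shared letters, at 229 and 227 bases, and 1 TEAD site match at 86 bases. That window ends at chr13:49608014, whereas GENCODE starts Ogn at chr13:49608046, so the Ogn distances depend on the annotation used. The Omd window held none of the 4 motifs. The 3 genes that rose thus had no motif of these 4 in common. Of 32851 windows of 250 bases before RefSeq starts, 12.4% held a TATA box, 42.2% a SMAD box, 12.6% a TEAD site and 32.7% a GC box. A match describes letters, not a site in use or a cause.

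On GRCm38 (GENCODE M21), Aspn (chr13:49544443-49567565), Omd (chr13:49582462-49592822) and Ogn (chr13:49608046-49624501) lie in a row on the plus strand with gaps of 14.9 and 15.2 kb, and Ecm2, another SLRP gene, precedes Aspn by 11.7 kb. Dcn (chr10:97479609-97518143) and Lum (chr10:97565128-97572703) are 47.0 kb apart on the plus strand, with Kera and Epyc beyond Lum. Prelp (chr1:133910304-133921414, minus strand) and Fmod (chr1:134037254-134048277, plus strand) are 116 kb apart. No protein-coding gene starts between any of these neighbours. Bgn (chrX:73483602-73495933) and Chad (chr11:94565047-94569127) are on the plus strand and Podn (chr4:108014791-108096445) is on the minus strand, each without another of the 10 on its chromosome. The minus-strand gene Cenpp spans the chromosome 13 genes and shares 7 exon bases with Aspn and 0 with Omd and Ogn, and the antisense locus Gm15851 shares 350 exon bases with Prelp. Chad lies within the minus-strand gene Acsf2, and Podn overlaps Scp2, Gm23354 and Mir6397, with 0 exon bases shared in each case. The strand setting of the counting was not stated, so reads over those bases cannot be assigned.

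The 12 libraries held 57174654 to 82187009 counts each. Jmjd4 itself had 8.95, 4.92 and 9.63 CPM (counts scaled to a common library size with edgeR's TMM factors) in cKO hearts, against 19.0, 8.04 and 16.9 in flox hearts (log2 fold change -0.90, SE 0.44, adjusted p = 0.397 in edgeR's quasi-likelihood test), and the groups overlapped. It had 3.58, 3.43 and 3.52 CPM in the NRVC libraries labelled siJmjd4, against 3.46, 4.40 and 0.982 CPM in those labelled siNC. SiNC replicate 3 was the lowest, and the groups also overlapped in CPM without it, so the knockdown was not seen in these counts. Mouse Jmjd4 shares 307 exon bases with the minus-strand gene Snap47, and reads over those bases cannot be assigned. Overlaps of the rat gene were not examined. Flox replicate 3 was unlike the remaining hearts: 41.7% of its counts came from the mitochondrial genome, against 14.2% to 24.1% in the others, and 1485 of the tested genes were at 0 in it, against 125 to 503. Its TMM factor was 0.441, against 1.06 to 1.35 in the other hearts, so its CPM rest heavily on that scaling. In NRVCs, siNC replicate 3 had 461 tested genes at 0, against 78 to 137 in the others. Calls for the SLRP genes and for the gene lists are given with and without these libraries, and so are the values that they move most. Both tissues are labelled cardiomyocytes, but fibroblast, endothelial and macrophage markers were present in both, with 5 of 5 activated fibroblast markers and 10 of 10 fibroblast markers tested in each system.

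In cKO hearts, 3 of the 10 SLRP genes rose and none fell. Biglycan rose 8.11-fold, osteomodulin 5.56-fold and asporin 4.39-fold. Fibromodulin was 9.34-fold higher and just missed the threshold. The remaining 6 had point estimates above 0 without passing the test. Of all 18094 heart genes, 0.37% were called higher and 0.138% lower at an adjusted p under 0.05 (edgeR's quasi-likelihood test, Benjamini-Hochberg over all genes). At an unadjusted p under 0.05 there were 6 of the 10, against 15% of all genes. In bulk tissue, more cells of a type and more RNA per cell cannot be told apart.

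Bgn, whose product binds collagen and TGF-beta and can engage Toll-like receptors when released from the matrix, had 1094, 1072 and 1653 CPM in cKO hearts, against 178, 166 and 128 CPM in flox hearts. Every cKO heart was far above every flox heart, and cKO replicate 3 was the highest. This is a log2 fold change of 3.02 (SE 0.42), with adjusted p = 0.0414 by edgeR. Dcn, the closest relative of Bgn and a ligand of collagen, TGF-beta and receptor tyrosine kinases, had 694, 776 and 631 CPM in cKO hearts, against 385, 390 and 563 CPM in flox hearts. The groups did not overlap, but flox replicate 3 came near the lowest cKO heart after its TMM scaling. That library had 19946 Dcn counts, against 30259 and 30044 in the other flox hearts, and the highest total of the 6 hearts. With total counts alone the log2 fold change was 1.31 (adjusted p = 0.1397 by edgeR). The log2 fold change of 0.65 (SE 0.36) did not pass (adjusted p = 0.469). Aspn, which binds collagen and TGF-beta and differs from its relatives by a run of aspartates, had 117, 126 and 160 CPM in cKO hearts, against 33.6, 31.4 and 26.8 CPM in flox hearts. Its groups were well apart, with a log2 fold change of 2.13 (SE 0.31, adjusted p = 0.0490 by edgeR).

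Fmod, a regulator of fibril width in tendon, had 25.1, 27.7 and 59.7 CPM in cKO hearts, against 4.55, 4.85 and 2.60 CPM in flox hearts. The groups did not overlap, and cKO replicate 3 was well above the other cKO hearts. This is a log2 fold change of 3.22 (SE 0.49), with adjusted p = 0.0510 by edgeR. Omd, best known from bone, had 7.07, 6.76 and 4.83 CPM in cKO hearts, against 1.32, 1.12 and 0.903 CPM in flox hearts. It was a low gene in both groups, with 32 to 104 counts in flox hearts, and its groups were apart (log2 fold change 2.47, SE 0.35, adjusted p = 0.0456 by edgeR). Lum, a keratan sulfate proteoglycan of cornea and skin, had 115, 145 and 170 CPM in cKO hearts, against 43.8, 55.0 and 61.8 CPM in flox hearts. These values did not overlap either, and the log2 fold change of 1.42 (SE 0.33) missed the threshold (adjusted p = 0.111). Prelp, which binds collagen and heparan sulfate, had 124, 116 and 128 CPM in cKO hearts, against 54.9, 56.9 and 19.2 CPM in flox hearts. Flox replicate 3 was the lowest by a wide margin, and the log2 fold change of 1.49 (SE 0.46) did not pass (adjusted p = 0.202).

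Ogn, also called mimecan, had 146, 132 and 159 CPM in cKO hearts, against 88.7, 85.9 and 137 CPM in flox hearts. In TMM-scaled CPM the groups overlapped through flox replicate 3 (log2 fold change 0.48, SE 0.34, adjusted p = 0.571, and 0.74 without that library, adjusted p = 0.0789). This overlap rests on the scaling, as flox replicate 3 had 4860 Ogn counts, against 6971 and 6619 in the other flox hearts. With total counts alone the log2 fold change was 1.18 (adjusted p = 0.1925 by edgeR). Podn had 21.0, 14.2 and 16.9 CPM in cKO hearts, against 17.5, 16.4 and 4.15 CPM in flox hearts, with overlapping groups (log2 fold change 0.45, SE 0.54, adjusted p = 0.771, and 0.038 without flox replicate 3). Chad, a cartilage protein, was close to the limit of detection, with 29, 12 and 52 counts in cKO hearts, against 24, 9 and 0 counts in flox hearts. In all, 7 of the 10 genes had every cKO heart above every flox heart, against 14.9% of all tested genes. The median log2 fold change of the 10 was 1.46, against 0.00034 over all tested genes. With libraries scaled to total counts alone, these medians were 1.96 for the SLRP genes and 0.54 for all genes.

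**Figure D1:**
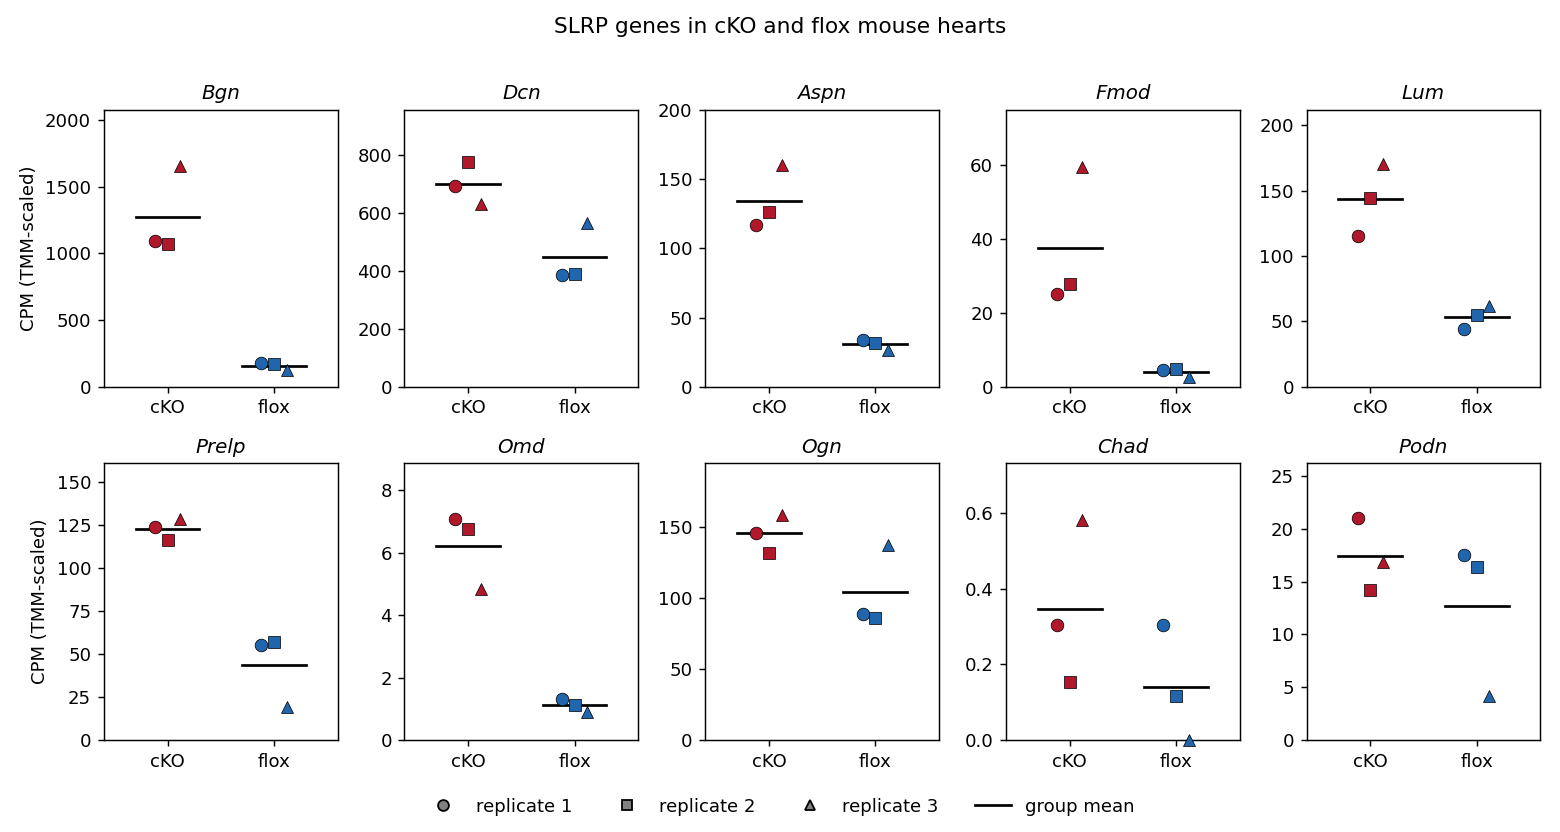
CPM (TMM-scaled, linear axis from 0, own scale per gene) of the 10 SLRP genes in each cKO (red) and flox (blue) heart; marker shapes are replicates and lines are group means (n = 3 each). Bgn, Aspn, Fmod, Omd, Lum, Prelp and Dcn do not overlap between the groups. In these TMM-scaled values flox replicate 3 (triangle) is the flox heart nearest to cKO for Dcn, Lum and Ogn. It is the lowest flox heart for Bgn, Aspn, Fmod, Omd, Prelp, Podn and Chad.

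The calls depended on single libraries more than the sizes did. Without flox replicate 3, 6 of the 10 genes were called higher (4.26% of all genes), with Fmod (2.99, SE 0.43, adjusted p = 0.0137), Lum (1.54, adjusted p = 0.0193) and Prelp (1.14, adjusted p = 0.0215) added to Bgn (2.89), Omd (2.35) and Aspn (2.05), all as log2 fold changes by edgeR. With libraries scaled to total counts alone edgeR called 0 of the 10 (0.111% of all genes). Without any other single library, it called 0 of the 10, and 0 of all genes, while 6 of the 10 had an unadjusted p under 0.05 each time (8.85% to 13.7% of all genes). The log2 fold change of Bgn ran between 2.79 and 3.13 over these 6 fits, that of Aspn between 2.00 and 2.23, and that of Omd between 2.35 and 2.64. With DESeq2's size factors in edgeR, Aspn lost its call (adjusted p = 0.0521). With no filter on low counts Aspn also lost it (adjusted p = 0.0538) while Fmod gained one (adjusted p = 0.0376), and Bgn and Omd passed in both fits. DESeq2's Wald test called 6 higher and 0 lower (5.29% and 4.37% of all genes), and limma voom with sample quality weights called 8, all except Chad and Podn (12% of all genes). Ogn and Dcn were called only by the voom fit and by the edgeR fit without flox replicate 3 and cKO replicate 2, which called 8 (9.54% of all genes), and in which Dcn had a log2 fold change of 0.77 (adjusted p = 0.0131) and Ogn of 0.79 (adjusted p = 0.00912). No SLRP gene had a negative heart estimate in any of the fits, which reuse the same 6 libraries. Of all genes, 78.5% had a positive estimate with total counts alone and 46.9% to 54.3% in the other fits. The lowest SLRP estimate was 0.038, for Podn without flox replicate 3.

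**Figure D2:**
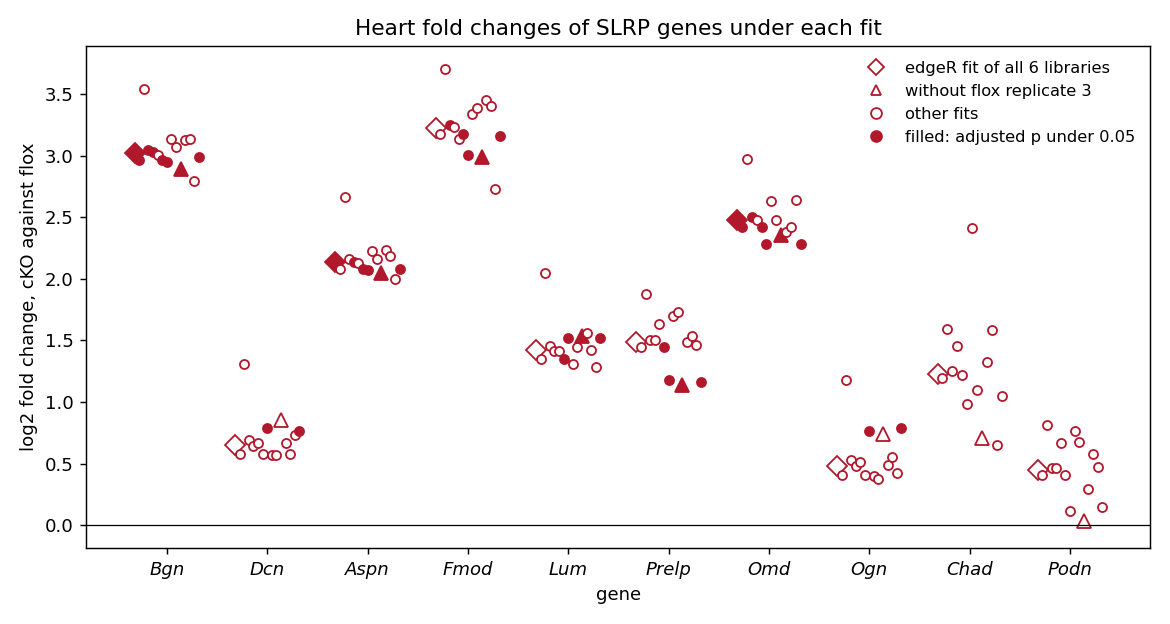
Log2 fold change (cKO against flox hearts) of each SLRP gene in the edgeR fit of all 6 libraries (diamond), without flox replicate 3 (triangle) and in the other fits (circles); filled symbols passed an adjusted p of 0.05. Estimates stay above 0 for all genes, the filled symbols change with the fit, and the highest point of each gene except Chad is scaling to total counts alone.

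Expressed per length (CPM per kb of the longest principal transcript), the leading SLRP transcript was not the same in the 2 heart groups. In cKO hearts Bgn stood first, with 526 ± 136 CPM per kb (SD, n = 3), ahead of Dcn with 398 ± 41.5, and their ranges did not overlap, although in cKO replicate 2 the 2 genes were nearly equal (443 and 442). Lum (58.5), Aspn (57.7) and Ogn (56.6) followed with overlapping ranges, then Prelp (33.9), Fmod (12.01), Podn (5.48), Omd (2.77) and Chad (0.206). In flox hearts Dcn stood first with 254 ± 57.7 CPM per kb. Bgn (64.9 ± 10.8) and Ogn (40.5 ± 11.2) came next with overlapping ranges, then Lum (21.9), Aspn (13.1), Prelp (12.1), Podn (4.01), Fmod (1.28), Omd (0.495) and Chad (0.0838). Aspn, Prelp, Podn and Fmod overlapped with their neighbours in that order. Of the summed per-length SLRP signal, Bgn took 43.0%, 40.4% and 52.4% in cKO hearts, against 19.2%, 17.9% and 11.2% in flox hearts. Dcn took 37.5%, 40.2% and 27.5% in cKO hearts, against 57.3%, 57.9% and 68.0% in flox hearts.

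**Figure D3:**
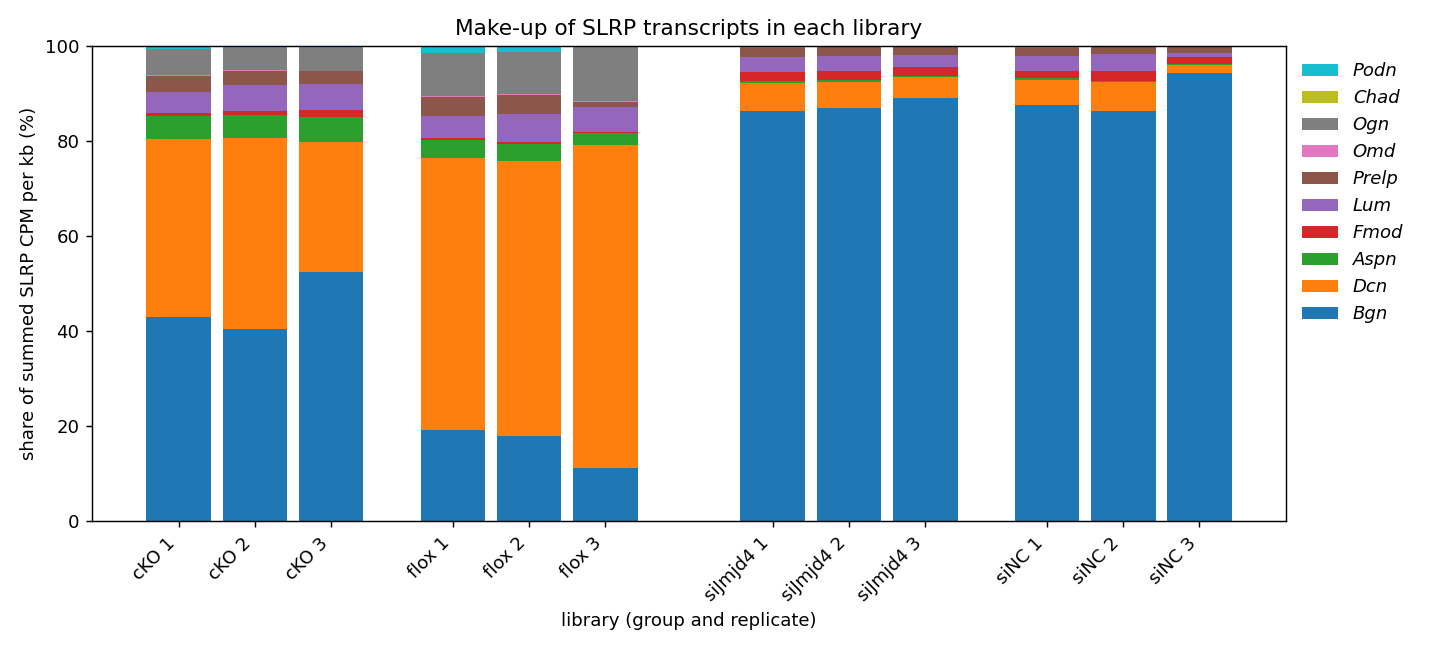
Share (%) of each SLRP gene in the summed SLRP CPM per kb of each library, with cKO and flox hearts at the left and the NRVC libraries labelled siJmjd4 and siNC at the right. The Bgn share is 40.4% to 52.4% in cKO hearts, 11.2% to 19.2% in flox hearts and 86.3% to 94.2% in NRVC libraries.

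Within a library, the ratio of Bgn to Dcn counts does not depend on the scaling between libraries. It was 1.58, 1.38 and 2.62 in cKO hearts, against 0.461, 0.426 and 0.227 in flox hearts. Every cKO heart had more Bgn than Dcn counts and every flox heart had fewer. The mean log2 ratio differed by 2.33, and the two-sided exact permutation test gave p = 0.1, the smallest value that 3 against 3 libraries allow. Some ratios between neighbours in the genome also separated the groups. The ratio of Aspn to Ogn counts was 0.801, 0.959 and 1.010 in cKO hearts, against 0.379, 0.366 and 0.195 in flox hearts, although both genes lie in the chromosome 13 cluster. The Omd to Ogn ratio was 0.0485, 0.0513 and 0.0304 in cKO hearts, against 0.0149, 0.0130 and 0.00658 in flox hearts. Aspn to Omd overlapped between the groups, with 16.5 to 33.2 in cKO hearts and 25.4 to 29.7 in flox hearts. On chromosome 10 the Lum to Dcn ratio was 0.166, 0.186 and 0.270 in cKO hearts, against 0.114, 0.141 and 0.110 in flox hearts. On chromosome 1 the Fmod to Prelp ratio was 0.202, 0.239 and 0.465 in cKO hearts, against 0.0830, 0.0853 and 0.135 in flox hearts. These neighbour ratios were chosen after the values were seen and have no test. The share of other gene pairs that separate in this way was not measured.

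Markers of other cell types were read in the same hearts, with calls by edgeR on all 6 libraries unless stated. The 5 activated fibroblast markers summed to 878 to 3735 CPM in cKO hearts, against 382 to 474 CPM in flox hearts, and Meox1, a transcription factor of activated fibroblasts, was called (110.5 ± 33.9 CPM in cKO hearts, against 15.6 ± 2.42 CPM in flox hearts, log2 fold change 2.83, SE 0.37, adjusted p = 0.0387). Postn, a matricellular protein of those cells, had 836, 533 and 2446 CPM in cKO hearts, against 52.6, 52.0 and 18.7 CPM in flox hearts (adjusted p = 0.0615). Acta2 was lower in every cKO heart without passing. The separation of the sums rested on Postn, although 4 of the 5 markers were higher in every cKO than flox heart. The 10 general fibroblast markers summed to 1158 to 2161 CPM in cKO hearts, against 1001 to 1672 CPM in flox hearts, none was called, and none of the 10 was at 0 in all libraries. The ratio of Bgn to Pdgfra counts, a receptor that marks fibroblasts, was 12.5, 21.3 and 20.9 in cKO hearts, against 3.32, 3.57 and 6.79 in flox hearts, and that of Dcn to Pdgfra overlapped (7.95 to 15.4 in cKO hearts, against 7.20 to 30.0 in flox hearts). The ratio of Bgn to counts of the collagen gene Col1a1 also overlapped, with 2.77, 5.43 and 1.89 in cKO hearts, against 1.44, 1.29 and 8.64 in flox hearts. That overlap came from flox replicate 3 (8.64) alone, and the other flox hearts were below every cKO heart. The ratio of Dcn to Col1a1 counts was 1.76, 3.93 and 0.723 in cKO hearts, against 3.13, 3.04 and 38.1 in flox hearts. It overlapped with and without flox replicate 3. The 8 macrophage markers summed to 508 to 633 CPM in cKO hearts, against 266 to 395 CPM in flox hearts, with 0 called. The 8 cardiomyocyte markers summed to 25601 to 34775 CPM in cKO hearts, against 44445 to 50149.5 CPM in flox hearts, with 0 called. Of the 8 cartilage and tendon markers, 3 were tested and Comp was called (81.3 ± 32.2 CPM in cKO hearts, against 1.27 ± 0.833 CPM in flox hearts), and Col9a1 and Matn1 were at 0 in all hearts. Without flox replicate 3, edgeR called higher 3 of 5 activated fibroblast, 3 of 10 fibroblast, 5 of 8 macrophage, 1 of 8 cardiomyocyte (Myh7) and 3 of 4 tested cartilage and tendon markers, and 1 cardiomyocyte marker (Mb) lower, against 4.26% of all genes higher and 2.93% lower. DESeq2 called higher 4, 2, 2, 1 and 2 markers of these lists in the same order, and 1 activated fibroblast and 2 cardiomyocyte markers lower. Of all genes it called 5.29% higher and 4.37% lower. The part of these cell types in the SLRP results was not tested.

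The genes that make and trim SLRPs, and those that bind them, were followed in lists, with calls by edgeR on all 6 hearts unless stated. Of the 22 tested genes of chondroitin and dermatan sulfate synthesis, 0 were called by edgeR, 7 were higher in every cKO than flox heart (14.9% of all genes), and the median log2 fold change was 0.63. Dse, the epimerase that turns chondroitin into dermatan sulfate, had 19.6, 20.9 and 25.4 CPM in cKO hearts, against 7.23, 6.78 and 7.99 CPM in flox hearts (adjusted p = 0.0653). Of 7 keratan sulfate genes 0 were called (median 0.13). B3gnt7, which extends keratan sulfate chains, had 0.777, 0.585 and 0.805 CPM in cKO hearts, against 0.0763, 0.104 and 0.113 CPM in flox hearts. These flox values were close to the limit of detection, as for Chad, so the fold change of B3gnt7 is uncertain. Of 18 proteases, enhancers and inhibitors 0 were called (median 0.83). Pcolce, which speeds the cleavage of procollagen, had 118, 158 and 184 CPM in cKO hearts, against 29.8, 37.9 and 43.3 CPM in flox hearts (adjusted p = 0.0608). Of 10 tested collagens that SLRPs bind 0 were called, with a median of 2.37, and 9 of 10 were higher in every cKO than flox heart, against 14.9% of all genes. Their replicates spread widely, as for Col1a2 with 477, 366 and 1143 CPM in cKO hearts, against 140, 148 and 31.0 CPM in flox hearts (adjusted p = 0.170).

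Among 17 TGF-beta and receptor partners, 1 was called and the median was 1.05. The called gene was Tgfb3, a TGF-beta ligand, with 75.0, 74.7 and 111 CPM in cKO hearts, against 18.2, 18.1 and 11.7 CPM in flox hearts (log2 fold change 2.44, SE 0.36, adjusted p = 0.0490 by edgeR). Tlr2, a receptor for soluble biglycan, had 12.9, 9.85 and 11.4 CPM in cKO hearts, against 4.24, 3.97 and 4.29 CPM in flox hearts (adjusted p = 0.0779). Of 17 other proteoglycans 0 were called (median 0.78), led by Sdc4 with 28.8, 36.1 and 23.7 CPM in cKO hearts, against 11.9, 11.2 and 10.3 CPM in flox hearts. Of 18 SMAD and mechanical regulators 0 were called (median 0.53), and Runx1 had 7.42, 6.01 and 12.8 CPM in cKO hearts, against 2.26, 2.45 and 1.10 CPM in flox hearts (adjusted p = 0.101). The 5 tested SLRP genes outside the 10 had a median of -0.93 with 0 called. Among these, Tsku had 7.67, 8.76 and 5.40 CPM in cKO hearts, against 3.82, 2.24 and 2.37 CPM in flox hearts, and Chadl had 1.301, 0.865 and 0.793 CPM in cKO hearts, against 2.47, 1.71 and 1.44 CPM in flox hearts. Without flox replicate 3, edgeR called 3 of 22 chondroitin and dermatan sulfate genes, 1 of 7 keratan sulfate genes, 4 of 19 proteases and their partners, 2 of 10 collagens, 4 of 17 TGF-beta and receptor partners, 1 of 19 other proteoglycans, 5 of 18 regulators and 0 of 6 other SLRP genes, all higher, against the 4.26% of all genes given above. In the same order the median log2 fold changes without that library were 0.39, 0.079, 0.79, 1.90, 0.76, 0.43, 0.45 and -0.23. DESeq2 on all hearts called 3 of 22, 1 of 7, 4 of 18, 6 of 10, 7 of 17, 1 of 17, 3 of 18 and 1 of 5 tested genes of these lists. All were higher, against 5.29% of all genes called higher by DESeq2.

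The heart genes whose profile over the 6 libraries lay nearest to that of Bgn, among 10188 searched, were Lhfpl2, Wisp1, Fmod, Slc16a3 and Fbln5, with root mean square differences of centred log2 CPM of 0.193 to 0.287. Fmod, another SLRP, was among them with a difference of 0.259. Nearest to Dcn were Cobl, Cndp2, Atp6v1h, Sdcbp and Ctps, with differences of 0.0405 to 0.0858. These distances describe 6 libraries and carry no test.

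In NRVCs, no SLRP gene was called in the libraries labelled siJmjd4 against those labelled siNC. EdgeR called 0 of 9 (0 at an unadjusted p under 0.05, against 8.71% of all genes), and DESeq2's Wald test also called 0. Of all genes, edgeR called 0.00645% higher and 0% lower, and DESeq2 called 0.878% higher and 0.206% lower. No member was free of overlap between the groups in either direction, against 22.4% of all genes higher and 17.8% lower. The median log2 fold change of the 9 was 0.023, against 0.0065 over all 15497 genes.

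Bgn was by far the most abundant SLRP transcript in these cells, with 5134, 5165 and 5870 CPM in libraries labelled siJmjd4, against 5917, 5754 and 10327 CPM in those labelled siNC. The siNC value of replicate 3 stood alone, and the other libraries lay within 5134 to 5917 CPM. On the log2 scale the fold change was -0.44 (SE 0.27, adjusted p = 0.386 by edgeR), and -0.11 without siNC replicate 3. Dcn had 256, 242 and 217 CPM in libraries labelled siJmjd4, against 257, 293 and 147 CPM in those labelled siNC (log2 fold change 0.04, SE 0.27). SiNC replicate 3 was here the lowest, and without it the log2 fold change was -0.21. Lum followed Dcn, with 201, 191 and 169 CPM in libraries labelled siJmjd4, against 213, 238 and 94.6 CPM in those labelled siNC (log2 fold change 0.04, SE 0.34, and -0.27 without siNC replicate 3). Aspn had 19.0, 24.3 and 15.6 CPM in libraries labelled siJmjd4, against 24.7, 24.0 and 11.4 CPM in those labelled siNC. The same siNC library was again the lowest (log2 fold change -0.03, SE 0.34, and -0.31 without it).

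Fmod had 141, 146 and 149 CPM in libraries labelled siJmjd4, against 140, 180 and 198 CPM in those labelled siNC (log2 fold change -0.25, SE 0.17). Prelp had 162, 164 and 166 CPM in libraries labelled siJmjd4, against 165, 160 and 254 CPM in those labelled siNC, where replicate 3 was alone at the top (log2 fold change -0.24, SE 0.21). Omd and Chad were low, with group means of 1.62 and 1.14 CPM in libraries labelled siJmjd4, against 1.29 and 1.12 CPM in those labelled siNC. Ogn was irregular, with 1929, 716 and 1049 counts in libraries labelled siJmjd4, against 1753, 0 and 8 counts in those labelled siNC. Of 9934 rat genes with a median of at least 500 counts, 60 (0.604%) were listed at 0 in at least 1 library. Examples chosen after seeing the values are Hnrnpab and Ube2b, genes of general use, which were at 0 in siNC replicate 3 alone. Another is Hsp90aa1, at 0 in siJmjd4 replicate 2 and in siNC replicates 1 and 3. The zero of Ogn was in siNC replicate 2, where these examples all had counts. The zero of Ogn is therefore given only as listed, and no change is read from its counts. The rat table also holds a row named Aspnl1, which is not a member, and reads that it may share with Aspn cannot be told apart.

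**Figure D4:**
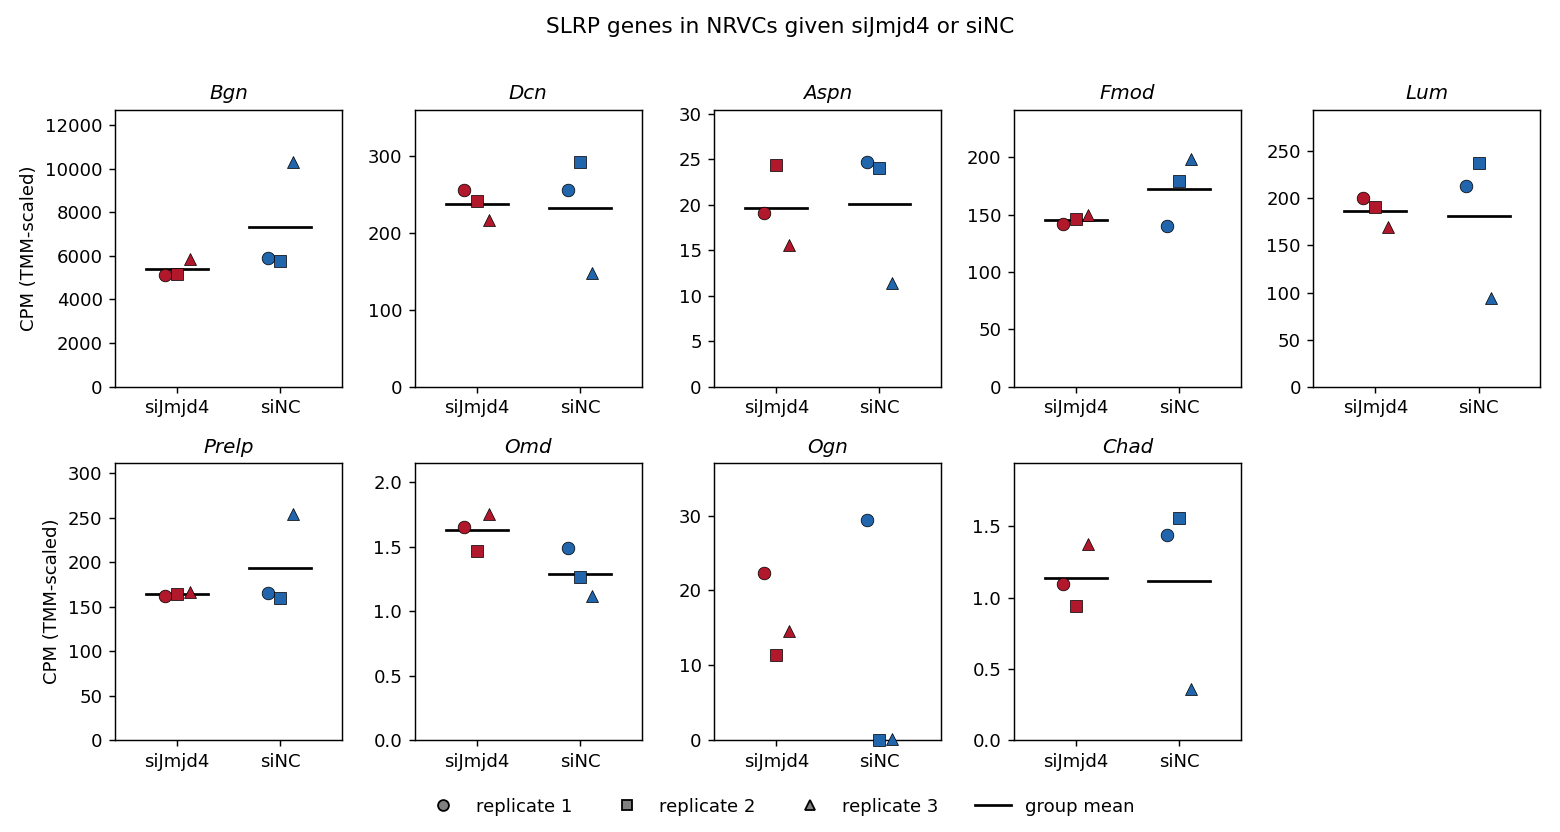
CPM (TMM-scaled, linear axis from 0, own scale per gene) of the 9 SLRP genes measured in NRVC libraries labelled siJmjd4 (red) and siNC (blue); marker shapes are replicates, lines are group means (n = 3 each), and Ogn has points only. All 9 genes overlap between the groups, and siNC replicate 3 (triangle) is an extreme for Bgn, Dcn, Aspn, Lum, Fmod, Prelp, Omd and Chad.

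The make-up of SLRP transcripts in NRVCs was led by Bgn, with 87.4% (86.3% to 89.0%) of the summed CPM per kb in libraries labelled siJmjd4, against 89.4% (86.3% to 94.2%) in those labelled siNC, using mouse transcript lengths. Dcn came second with 5.35% in libraries labelled siJmjd4, against 4.38% in those labelled siNC. In CPM per kb, Bgn had 2228 ± 172 in libraries labelled siJmjd4, against 3031 ± 1073 in those labelled siNC. Lum, Fmod and Prelp came after Dcn in both groups, and in the siNC libraries the ranges of Dcn, Lum, Fmod and Prelp overlapped. The ratio of Bgn to Dcn counts was 20.0, 21.4 and 27.1 in libraries labelled siJmjd4, against 23.0, 19.6 and 70.0 in those labelled siNC. The mean log2 ratio differed by -0.48 (two-sided exact permutation p = 0.7), and by 0.09 without siNC replicate 3. Fibroblast markers summed to 833 to 847 CPM in libraries labelled siJmjd4, against 786 to 832 CPM in those labelled siNC, and activated fibroblast markers to 13859 to 16904 CPM, against 13642 to 14702 CPM. Cardiomyocyte markers summed to 10059.6 to 11822 CPM in libraries labelled siJmjd4, against 11793 to 18240 CPM in those labelled siNC. The ratio of Bgn to Pdgfra counts was 35.7, 32.2 and 33.8 in libraries labelled siJmjd4, against 45.2, 42.4 and 159 in those labelled siNC, so every siJmjd4 library was lower. The same held for Dcn to Pdgfra (1.78, 1.51 and 1.25, against 1.96, 2.16 and 2.27), so it was not particular to Bgn. It also held for Bgn to Col1a1 (0.235, 0.223 and 0.226, against 0.254, 0.265 and 0.434), while Dcn to Col1a1 overlapped. The CPM of Bgn and of Dcn overlapped between the groups, and these ratios were not tested. Across the lists of SLRP partners edgeR on all 6 libraries called 0 genes in NRVCs. Without siNC replicate 3 it called 1 of 10 collagens (Col14a1) and 1 of 17 TGF-beta and receptor partners (Tgfbr2). That fit also called 2 of 16 proteases and their partners (Adamts5 and Timp3) and 2 of 20 other proteoglycans (Acan and Gpc6). All were higher, against 0.487% of all genes. DESeq2 on all libraries called 1 of 23 chondroitin and dermatan sulfate genes and 2 of 19 other proteoglycans, all higher, against 0.878% of all genes.

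The profiles nearest to that of Bgn over the 6 NRVC libraries, among 10341 genes searched, were those of Gpx8, Atf5, Slc17a9, Dcp1b and Tagln2 (root mean square differences of 0.0354 to 0.0432). Nearest to Dcn were Sptssa, Sertad3, Sap30, Adamts15 and Rbmxl1 (0.0433 to 0.0759). None of the genes near Bgn or Dcn in hearts was among those near them in NRVCs. With only 5 genes kept from each search, a shared gene was unlikely in any case, so no difference between the systems is read from this.

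A single edgeR fit to the 12 libraries tested the log2 fold change in hearts minus that in NRVCs, over 13482 genes paired by symbol. For 4 of the 9 SLRP genes present in both, the change in hearts exceeded that in NRVCs, against 1.34% of all genes called higher and 0.341% called lower. The difference was 3.46 for Bgn (SE 0.50, adjusted p = 0.00657), from 3.02 in hearts and -0.44 in NRVCs. For Fmod it was also 3.46 (SE 0.52, adjusted p = 0.00771), from 3.22 in hearts and -0.25 in NRVCs. It was 2.16 for Aspn (SE 0.45, adjusted p = 0.0383) and 2.14 for Omd (SE 0.46, adjusted p = 0.0433). Prelp (1.72, adjusted p = 0.136), Lum (1.38, adjusted p = 0.172), Chad (1.17, adjusted p = 0.720) and Dcn (0.62, adjusted p = 0.522) did not pass, and Ogn is not read because of its zeros. Bgn and Fmod passed with each of the 12 libraries left out in turn. With total counts alone 2 were called (2.43% of all genes), and 7 without flox replicate 3 and siNC replicate 3 (7.16%). Aspn and Omd lost the call in some of the 12 fits, with adjusted p up to 0.133 and 0.149. Species, age, tissue and way of targeting differ between the systems together and cannot be told apart.

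**Figure D5:**
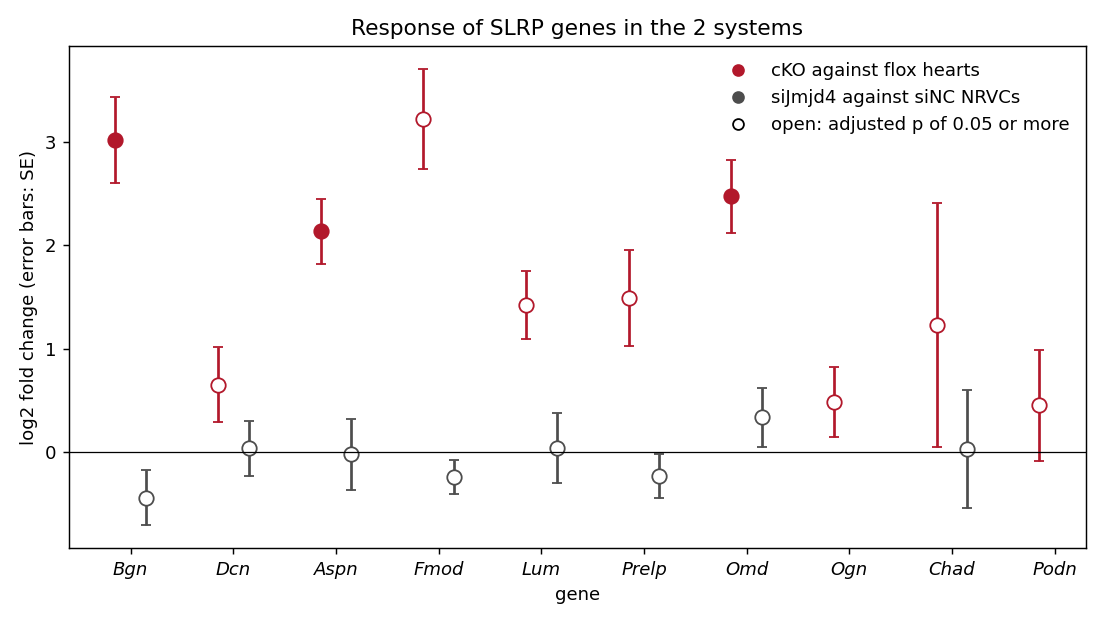
Log2 fold change (points) and its standard error (bars) of each SLRP gene, for cKO against flox hearts (red) and for NRVC libraries labelled siJmjd4 against siNC (grey); filled points passed an adjusted p of 0.05. Heart estimates of Bgn, Fmod, Omd and Aspn lie between 2.13 and 3.22 while those in NRVCs lie between -0.44 and 0.33, with Ogn not drawn in NRVCs and Podn measured in hearts only.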

How the data were processed

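Total RNA of 6 mouse heart apices and 6 NRVC cultures was extracted with TRIzol and sequenced, per the labels' protocols. The authors deposited raw counts, whole numbers for each gene symbol in a separate mouse and rat table. The submitters' processing notes list HISAT2 2.1.0, StringTie 1.3.4, edgeR 3.20.9, mm10 and rn6 without saying what each was used for. The annotation, the counting rules and the strand setting were not stated. Groups come from the labels. The SLRP genes, partner lists, marker lists and tests were chosen with earlier results of these data known.

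Low genes were removed with filterByExpr and libraries were scaled by TMM. EdgeR 4.0.16 (R 4.3.3) then fitted a robust quasi-likelihood model to the 6 libraries of a system, with group as its only term. Tests were two-sided, Benjamini-Hochberg adjusted over all genes, and called at an adjusted p under 0.05. CPM use TMM-scaled library sizes, so another scaling moves all values of a library. Alternatives were DESeq2's size factors and Wald test (1.42.0), limma voom with quality weights (3.58.1), total counts alone, all genes kept, genes of at least 5 CPM on average, the replicate number as a block, and libraries left out. The test of the systems' difference without flox replicate 3 and siNC replicate 3 was added after the data were seen. Positions and transcript lengths are from GENCODE M21, and promoters from RefSeq (GRCm38.p6). From each list up to 4 genes with the smallest p could be named, and nearest profiles were searched among genes of at least 5 CPM. No replicate pair was a duplicate: the chi-square of their counts was 26.6 to 1668 per degree of freedom, where sampling noise gives about 1. The code was tested on simulated counts. Depth was 57174654 to 82187009 counts per library.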

Additional observations from a re-analysis of the deposited data

Results flagged for a closer look

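The log2 fold change in hearts (cKO against flox) minus that in NRVCs (libraries labelled siJmjd4 against siNC) passed the edgeR test of the difference itself for Bgn (3.46), Fmod (3.46), Aspn (2.16) and Omd (2.14). In NRVCs the estimates of these genes were -0.44 for Bgn, -0.25 for Fmod, -0.03 for Aspn and 0.33 for Omd, none past the threshold. Activated fibroblast markers summed to 878 to 3735 CPM in cKO hearts, against 382 to 474 CPM in flox hearts. The separation of these heart sums rested on Postn. Of the 5 markers, 4 were higher and Acta2 was lower in every cKO than flox heart. In NRVCs they summed to 13859 to 16904 CPM in libraries labelled siJmjd4, against 13642 to 14702 CPM in those labelled siNC. The part of these markers in the differences was not tested.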

How the results depend on the processing

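For cKO against flox hearts, 3 SLRP genes were called, against 0 with total counts alone, 6 with DESeq2's Wald test, 8 with limma voom and quality weights and 8 without flox replicate 3 and cKO replicate 2. With single libraries left out the count ran from 0 to 6, with 6 only without flox replicate 3. For the difference between the systems, 4 were called, against 2 with total counts alone and 7 without flox replicate 3 and siNC replicate 3, and 2 to 5 with single libraries left out (0.366% to 4.25% of all genes called higher), with 5 only without flox replicate 3. In NRVCs 0 were called in every fit. The cause of these shifts was not tested. The labels do not say whether replicate numbers pair libraries. Correlations of deviations from the group mean between libraries of the same number were 0.36, -0.48 and -0.33 in hearts, and -0.14, -0.02 and -0.15 in NRVCs. The highest between unlike numbers was 0.55 in hearts and 0.16 in NRVCs. With 3 libraries per group these values cannot show that pairing is absent. With the replicate block 0 SLRP genes and 0 of all genes were called in hearts, in NRVCs and for the difference. Among single-gene values, 98 heart estimates kept direction and side of the threshold, 23 lost the call, 17 gained it and 0 reversed. In NRVCs 99 kept both and 16 reversed, none of them called.

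The reversals in NRVCs concerned Dcn (-0.21 with voom, -0.21 to 0.24 with single libraries left out), Lum (-0.26 with voom, -0.27 to 0.28), Prelp (0.0098 with voom, -0.35 to 0.015), Chad (-0.47 with voom, -0.39 to 0.33) and Aspn (0.024 with total counts alone, 0.033 with the replicate block, -0.31 to 0.15). The Ogn difference between systems, which rests on siNC counts of 0 and 8 and is not read as a change, was 0.40 with total counts alone, 0.59 without flox replicate 3 and siNC replicate 3, and -7.30 to 0.36 with single libraries left out, and it passed only at -7.30, without siNC replicate 1 (adjusted p = 0.01035). The log2 ratio of Bgn to Dcn counts differed by 2.01 to 2.52 in hearts and by -0.83 to 0.090 in NRVCs with single libraries left out. The offset for transcript length was not run, because 79.9% of tested mouse genes had a length and 80% were required. Depth limits Chad and Omd, which had as few as 0 and 32 counts in a heart library.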

Other observations

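The genes around SLRPs were also followed in NRVCs. Median log2 fold changes (libraries labelled siJmjd4 against siNC) were 0.34 for chondroitin and dermatan sulfate synthesis, 0.09 for keratan sulfate synthesis, 0.45 for collagens, 0.46 for TGF-beta and receptor partners, -0.21 for proteases and their partners, 0.13 for other proteoglycans, 0.41 for SMAD and mechanical regulators and -0.21 for the other SLRP genes, with 0 called by edgeR on all 6 libraries in each. Without siNC replicate 3 these medians were, in the same order, 0.18, 0.060, 0.16, 0.20, -0.039, 0.081, 0.31 and 0.097, so that of the other SLRP genes turned its sign. Ust, which sulfates dermatan chains, had 8.18, 11.6 and 11.1 CPM in libraries labelled siJmjd4, against 5.81, 5.22 and 4.12 CPM in those labelled siNC. Acan, the cartilage proteoglycan aggrecan, had 25.3, 32.4 and 29.1 CPM in libraries labelled siJmjd4, against 17.3, 17.4 and 15.6 CPM in those labelled siNC. Tsku had 82.6, 88.2 and 85.3 CPM in libraries labelled siJmjd4, against 89.9, 91.7 and 151 CPM in those labelled siNC.

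Other marker lists in hearts gave, by edgeR on all 6 libraries, 0 called of 7 endothelial, 1 of 8 smooth muscle and pericyte (Cnn1, 14.6 ± 0.369 CPM in cKO hearts, against 1.57 ± 0.679 CPM in flox hearts), 0 of 6 lymphocyte and 0 of 5 epicardial and mesothelial genes, and 0 of the 4 adipocyte genes passed the filter. Without flox replicate 3 edgeR called 1 epicardial and mesothelial gene (Msln) and Cnn1 higher and no other gene of these lists. Of all genes that fit called 4.26% higher and 2.93% lower. DESeq2 called 1 smooth muscle and pericyte gene, 2 lymphocyte genes and 1 epicardial and mesothelial gene higher, and 1 lymphocyte gene lower. Its shares of all heart genes were 5.29% higher and 4.37% lower. In NRVCs edgeR on all 6 libraries called 0 genes of the marker lists. Without siNC replicate 3 it called 1 higher, in the cartilage and tendon list, against 0.487% of all genes. This was Acan (adjusted p = 0.0496), which is also counted among the other proteoglycans in NRVCs. DESeq2 called 1 cartilage and tendon gene higher and 1 epicardial and mesothelial gene lower there, against 0.878% of all genes higher and 0.206% lower.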
